A study of Mus musculus with 8 samples.

Results

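Livers of mice injected with acetaminophen (APAP) and PBS were compared with control livers across all measured genes. The comparison uses 5 of the 8 sequenced libraries: CTRL (n = 2), labelled control, and APAP_PBS (n = 3), labelled APAP+PBS. They were chosen by these treatment labels alone. All animals were C57 mice, a common inbred laboratory strain, and the ages are not given. The treatment text, which is the same for every sample, describes 400 mg/kg APAP into the peritoneal cavity, with or without mesenchymal stromal cells (MSC) through a tail vein 4 hours later, and livers taken at 24 hours. That text does not say what the CTRL mice were given, so effects of APAP, of PBS and of the injection cannot be told apart. The other 3 libraries, APAP_MSC, received APAP and MSC and entered only the shared estimate of the spread between libraries. Whether the libraries of a group are different animals is not labelled, and the p-values therefore cover only the variation among these libraries, which could be technical.

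Acetaminophen is a painkiller that injures the liver at high dose. Cytochrome P450 enzymes of the hepatocytes around the central veins turn it into a reactive product that glutathione normally captures. Once glutathione is used up, the product binds proteins, many of them mitochondrial, and hepatocytes die. The surviving hepatocytes then secrete acute phase proteins into the blood under the control of interleukin-6 and interleukin-1. In whole liver RNA, fewer cells of a type and less RNA per cell cannot be told apart.

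The deposited table holds 22183 genes with estimated counts of 16459393 to 22712252 per compared library, and 12722 genes passed the filter on low counts. Levels are given as TMM-normalised CPM, that is, counts scaled to a common normalised library size, and always in the order of the replicate numbers. For a gene with 0 counts, counting error alone allows up to 3 counts, which was 0.124 to 0.214 CPM. All 15 hepatocyte markers were measured in every library, and their summed level was 154000 and 136000 CPM in CTRL and 120500, 132000 and 140800 CPM in APAP_PBS. Of 12 pancreatic acinar markers, 9 were at 0 counts in all 5 libraries. The 12 summed to 18.4 and 6.06 CPM in CTRL and 5.88, 4.80 and 11.7 CPM in APAP_PBS. The share of counts from mitochondrially encoded genes was 13.1% and 10.7% in CTRL and 10.56% to 10.96% in APAP_PBS.

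The promoters of 4 strongly induced genes are printed to show the sequence next to their annotated RefSeq start sites, since the start sites in use were not measured. Each runs from 150 bases before to 30 bases from the RefSeq start site on the plus strand of GRCm38.p6, 5′ to 3′. Capitals in the first pair, the metallothionein genes at chr8:94178939-94179118 and chr8:94172468-94172647, mark the metal response element, searched as TGCGCNC or TGCACNC. Every motif was searched on both strands. The GENCODE start of Mt2 lies 46 bases after its RefSeq start, beyond the end of the printed window. Capitals in Orm2 at chr4:63362299-63362478 mark the C/EBP palindrome TTGCGCAA and the TATA box TATAAA, and those in Cxcl1 at chr5:90891095-90891274 mark the kappa B site GGGANTTTC.
Mt1: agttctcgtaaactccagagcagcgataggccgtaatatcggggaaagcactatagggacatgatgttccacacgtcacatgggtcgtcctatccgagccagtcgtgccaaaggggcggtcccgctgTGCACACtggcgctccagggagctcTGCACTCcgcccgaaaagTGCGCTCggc
Mt2: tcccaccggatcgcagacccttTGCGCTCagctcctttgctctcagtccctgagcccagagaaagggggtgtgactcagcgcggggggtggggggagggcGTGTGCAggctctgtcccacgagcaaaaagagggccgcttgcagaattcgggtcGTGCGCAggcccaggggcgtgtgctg
Orm2: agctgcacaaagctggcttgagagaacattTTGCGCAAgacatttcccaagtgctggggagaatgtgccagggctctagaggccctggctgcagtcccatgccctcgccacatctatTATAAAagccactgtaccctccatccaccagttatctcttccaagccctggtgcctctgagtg
Cxcl1: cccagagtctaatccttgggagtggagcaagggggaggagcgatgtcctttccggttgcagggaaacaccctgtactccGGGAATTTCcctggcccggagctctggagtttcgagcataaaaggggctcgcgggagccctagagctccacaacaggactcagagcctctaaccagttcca

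Mt1 and Mt2 encode metallothioneins, small proteins that bind zinc and copper. Mt2 stood at 0.926 and 1.36 CPM in CTRL and 618, 259 and 460.4 CPM in APAP_PBS (log2 fold change 8.56 ± 0.77 (SE), edgeR adjusted p = 0.0022). Mt1 stood at 2.21 and 4.84 CPM in CTRL and 563, 262 and 429.5 CPM in APAP_PBS (log2 fold change 6.84 ± 0.69 (SE), edgeR adjusted p = 0.00323). In both genes every APAP_PBS library was far above every CTRL library, with replicate 1 highest and replicate 2 lowest. Orm2, an orosomucoid of the acute phase, stood at 14.7 and 8.23 CPM in CTRL and 217, 193 and 231 CPM in APAP_PBS (log2 fold change 4.23 ± 0.24 (SE), edgeR adjusted p = 9.06e-06), with the 3 APAP_PBS libraries close together. Cxcl1, the neutrophil-attracting chemokine that the series title names, stood at 2.56 and 2.96 CPM in CTRL and 43.1, 38.4 and 34.9 CPM in APAP_PBS (log2 fold change 3.80 ± 0.21 (SE), edgeR adjusted p = 4.65e-06). Orm2 shares 22.7% of its 50-base windows with other genes, chiefly Orm1 and Orm3, so reads could be split between them, whereas Mt1 and Mt2 share 0%.

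The same motifs were searched in the RefSeq promoters, from 250 bases before to 50 after the start, which held 19 of the 20 genes with the largest increases and 16 of the 20 with the largest decreases. The metal response element was found in 5 of the 19, namely Mt1, Mt2, Abcc4, Gsta1 and Psat1, against 25.6% of all 27025 promoters in the table. It was found in 3 of the 16, namely Chrna4, Elovl6 and Susd4. The kappa B site was found in Cxcl1 alone among the 35, against 1.15% of all promoters, and the C/EBP palindrome in Orm2 alone, against 0.185%. The STAT site TTCNNNGAA was found in Abcc4, Csf2rb2 and Gsta1 among the increases and in Hamp2 among the decreases, against 8.47% of all promoters. The sterol response element TCACNCCAC was found in 0 of the 35, against 1.22%. These matches describe letters and not binding.

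Across the genome, APAP_PBS differed from CTRL by 546 increases and 760 decreases in edgeR's quasi-likelihood test at a Benjamini-Hochberg adjusted p of 0.05 over all tested genes, which is 4.29% and 5.97% of the 12722, or 10.3% in either direction. A further part of the table moved less clearly, since 3409 genes had an unadjusted p under 0.05. Each compared library moved these counts by over 1.5 times: 243 increases and 368 decreases were called without CTRL replicate 1, 175 and 303 without CTRL replicate 2, 236 and 329 without APAP_PBS replicate 1, 340 and 477 without APAP_PBS replicate 2, and 301 and 374 without APAP_PBS replicate 3. The libraries of the groups did not overlap for all 1306 called genes, as for 47.6% of all genes tested. Large changes were mostly increases: 106 genes rose and 53 fell by at least 4-fold, and 68 rose and 18 fell by at least 8-fold. Of the 68, 41 were at 3 counts or fewer in both CTRL libraries, so their fitted folds are no measure of size, and 25 reached a mean of 5 CPM in APAP_PBS.

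**Figure D1:**
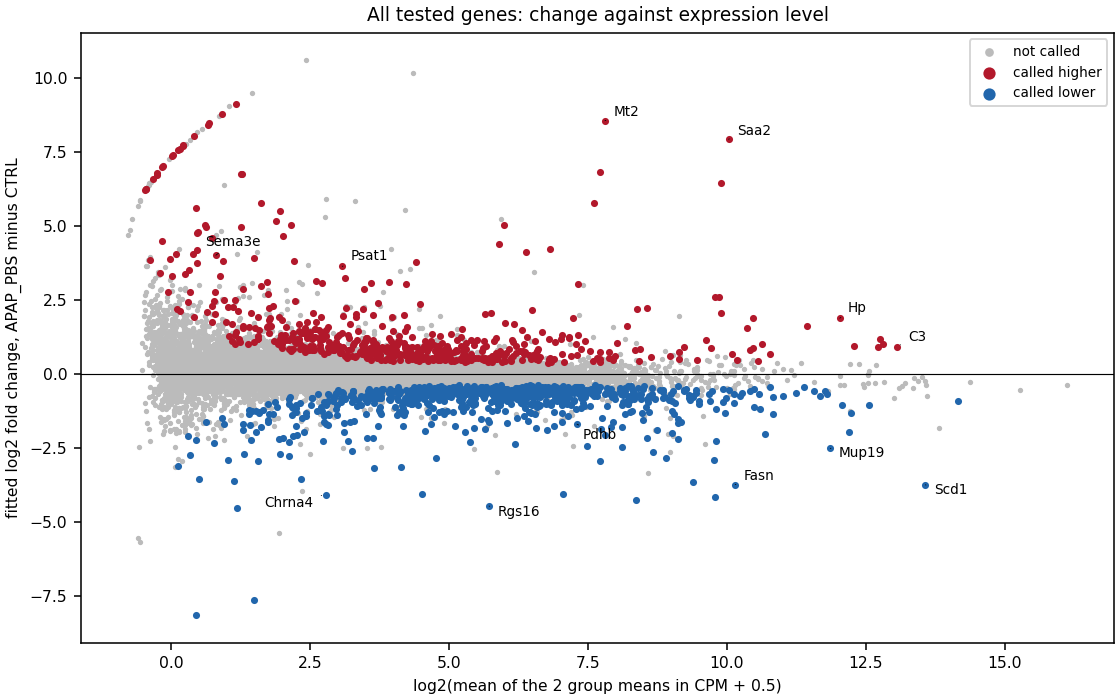
Fitted log2 fold change (APAP_PBS minus CTRL, y axis) of each of the 12722 tested genes against its expression level (log2 of the mean of the group means in CPM plus 0.5, x axis), with called genes in red (546 higher) and blue (760 lower). Decreases concentrate among abundant genes, Scd1 and Fasn among them, and the arc of points at the upper left is made of genes with almost no counts in CTRL.

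The direction of change went with the level of the gene. Among the 3181 genes with the highest mean CPM 166 were higher and 461 lower, while among the 3181 with the lowest 96 were higher and 42 lower. Genes called lower had a median level of 70.9 CPM in CTRL, against 9.43 CPM for those called higher and 12.1 CPM for all tested genes. The CTRL level itself enters the direction, which widens this gap. In APAP_PBS the medians were 41.5 CPM for genes called lower and 18.5 CPM for those called higher. Exon length went the same way: among the 3178 genes with the shortest summed exons 148 were higher and 323 lower, and among the 3177 with the longest 127 were higher and 109 lower. The genes called higher took up 4.53% and 4.59% of the counts in the CTRL libraries and 12.2%, 10.8% and 12.3% in APAP_PBS, and those called lower 20.9% and 22.5% in CTRL and 12.3%, 12.2% and 11.8% in APAP_PBS. These shares describe the called genes and were not tested. The split between directions depended on scaling. Library size alone, which moved the median of all genes by 0.24 on the log2 scale, called 1620 genes higher and 371 lower, and the deposited FPKM values, which moved it by 0.15, called 1188 and 326. All directions below are relative to the TMM scaling.

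The 3 APAP_PBS libraries were compared one by one with the mean of the CTRL libraries on the log2(CPM + 0.5) scale. The median effect over the genes called higher was 1.00, 0.86 and 0.88 in replicates 1, 2 and 3, and over those called lower -0.79, -0.65 and -0.71. The genes were called on these same libraries, so their shared direction was fixed by that choice and only the sizes are described. Replicate 1 was the highest of the group for 278 of the 546 higher genes and the lowest for 456 of the 760 lower genes. The 3 libraries lay within 1.5-fold of each other for 415 of the 546 and for 683 of the 760. In replicate 1, 19 higher genes were more than 2-fold above both other libraries, among them F13a1, the A subunit of coagulation factor XIII, Slpi, a secreted protease inhibitor, and Retnlg, a resistin-like protein of neutrophils. F13a1 stood at 0.142 and 0.0470 CPM in CTRL and 9.44, 3.89 and 1.70 CPM in APAP_PBS. Slpi stood at 0.142 and 0.0940 CPM in CTRL and 2.26, 0.746 and 0.760 CPM in APAP_PBS. Retnlg stood at 0.142 and 0.0470 CPM in CTRL and 1.53, 0.704 and 0.526 CPM in APAP_PBS, and all 3 genes had 3 counts or fewer in each CTRL library. The summed level of 15 monocyte and macrophage markers was 132 and 178 CPM in CTRL and 309, 178 and 168 CPM in APAP_PBS, and that of 12 neutrophil markers 18.4 and 2.40 CPM in CTRL and 25.0, 14.6 and 5.56 CPM in APAP_PBS, of which Ly6g was at 0 throughout. Replicate 1 was thus the highest library for both marker sums, and the part of these cells in its larger effects was not tested. F13a1 lost its call without CTRL replicate 1 or 2 (edgeR adjusted p 0.0823 to 0.127). Slpi and Retnlg lost their calls without CTRL replicate 1 or 2 or APAP_PBS replicate 1 (edgeR adjusted p 0.0825 to 0.196). F13a1 and Slpi were not called with the FPKM values (limma adjusted p 0.0587 to 0.0619).

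Ranked by fold change among called genes of at least 5 CPM, the largest increases held acute phase proteins, metal and drug handling proteins, serine and sugar metabolism and myeloid genes. Saa2 and Saa1, serum amyloid A proteins carried on lipoproteins, stood beside the metallothioneins at the top. Saa2 stood at 8.19 and 8.79 CPM in CTRL and 1983, 1973 and 2289 CPM in APAP_PBS (log2 fold change 7.93 ± 0.22 (SE), edgeR adjusted p = 5.88e-09). Saa1 stood at 23.6 and 19.6 CPM in CTRL and 1686, 1855 and 2123 CPM in APAP_PBS (log2 fold change 6.45 ± 0.22 (SE), edgeR adjusted p = 3.66e-08). Their APAP_PBS libraries spanned a narrow range, with replicate 3 highest in both genes, but 30% and 31.5% of their 50-base windows are shared, so the division between them is uncertain. Lcn2, a lipocalin that binds bacterial iron carriers, stood at 10.5 and 3.81 CPM in CTRL and 413, 364 and 372 CPM in APAP_PBS (log2 fold change 5.78 ± 0.44 (SE), edgeR adjusted p = 0.000366), and here the CTRL libraries lay farther apart than the APAP_PBS libraries. Gsta1, a glutathione transferase, stood at 6.55 and 4.37 CPM in CTRL and 113, 145 and 82.02 CPM in APAP_PBS (log2 fold change 4.40 ± 0.54 (SE), edgeR adjusted p = 0.00638), but 90.5% of its windows are shared, chiefly with Gsta2 and predicted copies. Hspb1, a small heat shock protein, stood at 9.97 and 8.23 CPM in CTRL and 126, 193 and 149 CPM in APAP_PBS (log2 fold change 4.11 ± 0.87 (SE), edgeR adjusted p = 0.0422), with 48.8% of its windows shared with a pseudogene. Gsta1 lost its call without CTRL replicate 2 (edgeR adjusted p = 0.0549). Hspb1 lost its call without any 1 of the 5 compared libraries or APAP_MSC replicate 1 (edgeR adjusted p 0.0665 to 0.187). Hspb1 was not called with no filter on low counts (edgeR adjusted p = 0.0629).

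**Figure D2:**
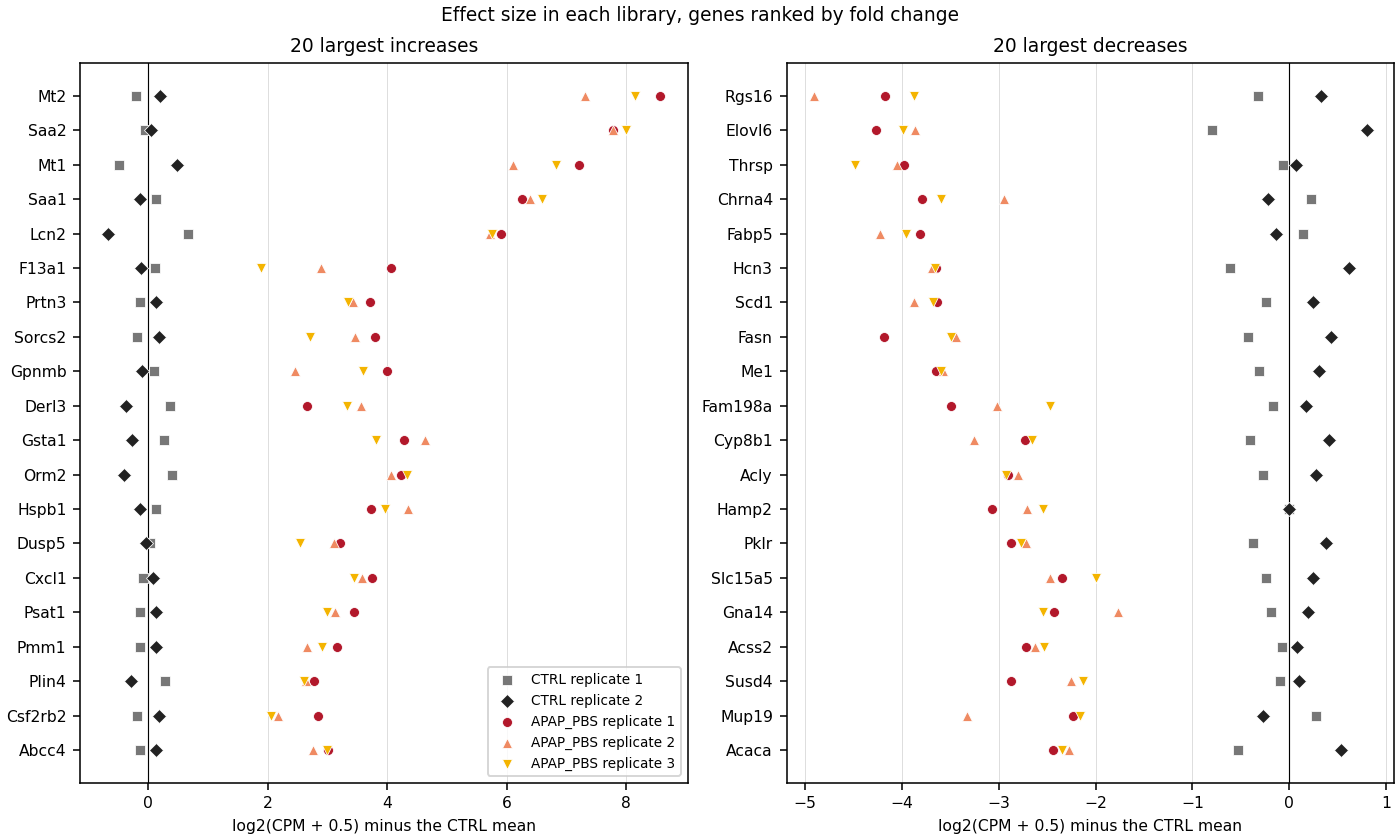
Effect in each library, log2(CPM + 0.5) minus the mean of the CTRL libraries (x axis), for the 20 largest increases (left) and the 20 largest decreases (right), with squares and diamonds for the CTRL and round and triangular points for the APAP_PBS libraries. In every row the groups are separate, which the rule for choosing these genes required. The CTRL libraries of Elovl6 and Hcn3 lie farther apart than most.

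Several of the 20 largest increases lie outside the acute phase. Psat1, the phosphoserine aminotransferase of serine synthesis, stood at 0.997 and 1.32 CPM in CTRL and 17.6, 14 and 12.7 CPM in APAP_PBS (log2 fold change 3.64 ± 0.74 (SE), edgeR adjusted p = 0.0292). Pmm1, a phosphomannomutase that feeds glycosylation, stood at 1.35 and 1.74 CPM in CTRL and 17.8, 12.4 and 14.7 CPM in APAP_PBS (log2 fold change 3.25 ± 0.73 (SE), edgeR adjusted p = 0.0403). Abcc4, an efflux pump of the sinusoidal membrane for bile acids and conjugates, stood at 2.71 and 3.34 CPM in CTRL and 27.9, 23.2 and 27.4 CPM in APAP_PBS (log2 fold change 3.09 ± 0.61 (SE), edgeR adjusted p = 0.0275). Plin4, a coat protein of lipid droplets, stood at 1.495 and 0.846 CPM in CTRL and 10.7, 9.73 and 9.48 CPM in APAP_PBS (log2 fold change 3.13 ± 0.45 (SE), edgeR adjusted p = 0.00428). In all 4 the 3 APAP_PBS libraries were alike and the CTRL libraries low. Dusp5, a nuclear phosphatase that inactivates ERK, stood at 0.570 and 0.517 CPM in CTRL and 9.21, 8.53 and 5.56 CPM in APAP_PBS (log2 fold change 3.83 ± 0.89 (SE), edgeR adjusted p = 0.0381). Csf2rb2, a receptor subunit for interleukin-3 in mouse, stood at 0.427 and 0.705 CPM in CTRL and 7.07, 4.27 and 3.92 CPM in APAP_PBS (log2 fold change 3.10 ± 0.43 (SE), edgeR adjusted p = 0.002). Abcc4 lost its call without any 1 of the 5 compared libraries (edgeR adjusted p 0.0571 to 0.145). Psat1, Pmm1 and Dusp5 lost their calls without any 1 of the 5 compared libraries or APAP_MSC replicate 1 (edgeR adjusted p 0.0506 to 0.199). Psat1, Pmm1, Abcc4 and Dusp5 were not called with no filter on low counts (edgeR adjusted p 0.0559 to 0.0812).

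A further 4 of the 20 were so rare in CTRL that only a few counts stand behind the lower group, and no fold is given. Prtn3, proteinase 3 of myeloid granules, stood at 0.0712 and 0.188 CPM in CTRL and 7.74, 6.25 and 5.91 CPM in APAP_PBS (edgeR adjusted p = 0.000192), with the APAP_PBS libraries close together. Sorcs2, a sorting receptor best known in neurons, stood at 0.0712 and 0.235 CPM in CTRL and 8.48, 6.63 and 3.74 CPM in APAP_PBS, with replicate 3 lowest. Gpnmb, a glycoprotein of lipid-laden and repair macrophages, stood at 0.285 and 0.188 CPM in CTRL and 11.2, 3.52 and 8.37 CPM in APAP_PBS, with replicate 2 lowest. Derl3, which helps to move misfolded proteins out of the ER, stood at 0.498 and 0.0940 CPM in CTRL and 4.35, 8.66 and 7.25 CPM in APAP_PBS, with replicate 1 lowest. Gpnmb lost its call without CTRL replicate 1 or 2 (edgeR adjusted p 0.074 to 0.103). Sorcs2 lost its call without any 1 of the 5 compared libraries or APAP_MSC replicate 1 (edgeR adjusted p 0.0688 to 0.202). Sorcs2 was not called with no filter on low counts (edgeR adjusted p = 0.0946).

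The largest decreases were led by Rgs16, a GTPase-activating protein that shortens G protein signalling, at 77.6 and 122 CPM in CTRL and 4.92, 2.77 and 6.20 CPM in APAP_PBS (log2 fold change -4.46 ± 0.93 (SE), edgeR adjusted p = 0.0418). Behind it came enzymes and regulators of fatty acid synthesis. Elovl6, which lengthens palmitate, stood at 311 and 938 CPM in CTRL and 27.6, 36.6 and 33.7 CPM in APAP_PBS (log2 fold change -4.26 ± 0.66 (SE), edgeR adjusted p = 0.0159), with CTRL replicate 2 far above replicate 1. Thrsp, which promotes fat synthesis, stood at 1588 and 1751 CPM in CTRL and 105, 100.2 and 74.2 CPM in APAP_PBS (log2 fold change -4.16 ± 0.56 (SE), edgeR adjusted p = 0.00864). Me1, malic enzyme, which supplies NADPH, stood at 983 and 1510 CPM in CTRL and 97.2, 102 and 100.1 CPM in APAP_PBS (log2 fold change -3.64 ± 0.42 (SE), edgeR adjusted p = 0.00432). Acss2, which activates acetate in the cytosol, stood at 663 and 736 CPM in CTRL and 106, 113 and 121 CPM in APAP_PBS (log2 fold change -2.63 ± 0.31 (SE), edgeR adjusted p = 0.00254). Fabp5, a fatty acid binding protein, stood at 275 and 225 CPM in CTRL and 17.2, 12.9 and 15.6 CPM in APAP_PBS (log2 fold change -4.04 ± 0.87 (SE), edgeR adjusted p = 0.0449). Elovl6 lost its call without APAP_PBS replicate 1, 2 or 3 (edgeR adjusted p 0.0553 to 0.0725). Rgs16 lost its call without any 1 of the 5 compared libraries (edgeR adjusted p 0.104 to 0.144). Fabp5 lost its call without any 1 of the 5 compared libraries or APAP_MSC replicate 1 (edgeR adjusted p 0.0511 to 0.146). Rgs16 and Fabp5 were not called with no filter on low counts (edgeR adjusted p 0.0615 to 0.0664).

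A second kind of gene among the 20 largest decreases has no textbook role in fatty acid synthesis. Chrna4, a nicotinic acetylcholine receptor subunit, stood at 13.96 and 10.2 CPM in CTRL and 0.396, 1.12 and 0.526 CPM in APAP_PBS (log2 fold change -4.07 ± 0.50 (SE), edgeR adjusted p = 0.002), so that the APAP_PBS libraries were near the level of a few counts. Hcn3, a cyclic nucleotide-gated cation channel, stood at 24.9 and 58.9 CPM in CTRL and 2.60, 2.53 and 2.57 CPM in APAP_PBS (log2 fold change -4.03 ± 0.57 (SE), edgeR adjusted p = 0.00926), with 3 nearly equal APAP_PBS libraries beside CTRL libraries that differed by more than 2-fold. Fam198a stood at 19.1 and 24.4 CPM in CTRL and 1.47, 2.24 and 3.51 CPM in APAP_PBS (log2 fold change -3.19 ± 0.32 (SE), edgeR adjusted p = 0.000481). Slc15a5, of the oligopeptide transporter family, stood at 5.55 and 7.94 CPM in CTRL and 0.904, 0.787 and 1.29 CPM in APAP_PBS (log2 fold change -2.78 ± 0.39 (SE), edgeR adjusted p = 0.002). Gna14, a G protein alpha subunit of the Gq class, stood at 5.06 and 6.72 CPM in CTRL and 0.678, 1.37 and 0.585 CPM in APAP_PBS (log2 fold change -2.71 ± 0.40 (SE), edgeR adjusted p = 0.00285). Susd4, a complement regulator, stood at 14.5 and 16.6 CPM in CTRL and 1.70, 2.86 and 3.16 CPM in APAP_PBS (log2 fold change -2.59 ± 0.56 (SE), edgeR adjusted p = 0.0286). Hamp2, a hepcidin paralogue of the mouse, stood at 47.1 and 47.2 CPM in CTRL and 5.20, 6.79 and 7.66 CPM in APAP_PBS (log2 fold change -2.85 ± 0.38 (SE), edgeR adjusted p = 0.00588), with CTRL libraries that were nearly equal. Cyp8b1, which makes 12-hydroxylated bile acids, stood at 269 and 473 CPM in CTRL and 53.2, 36.9 and 56.1 CPM in APAP_PBS (log2 fold change -2.93 ± 0.51 (SE), edgeR adjusted p = 0.0207). Cyp8b1 lost its call without CTRL replicate 2 or APAP_PBS replicate 1, 2 or 3 (edgeR adjusted p 0.0627 to 0.0946). Susd4 lost its call without any 1 of the 5 compared libraries (edgeR adjusted p 0.0764 to 0.115). Susd4 was not called with no filter on low counts (edgeR adjusted p = 0.0679).

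Ranked by the difference in CPM, a measure of read share that favours long and abundant transcripts, the response was carried by few genes. The 10 largest increases made up 59.8% of the summed gain of the genes called higher, and the 10 largest decreases 46.9% of the summed loss of those called lower. Hp, haptoglobin, which binds free hemoglobin, stood at 1850 and 1707 CPM in CTRL and 6717, 5811 and 7243 CPM in APAP_PBS (log2 fold change 1.89 ± 0.15 (SE), edgeR adjusted p = 6.1e-05). C3, the central complement protein, stood at 5444 and 6281 CPM in CTRL and 11220, 9738 and 12540 CPM in APAP_PBS (log2 fold change 0.93 ± 0.16 (SE), edgeR adjusted p = 0.00638). The fibrinogen chains Fga, Fgb and Fgg, which form clots, summed to 15740 and 11500 CPM in CTRL and 28320, 24620 and 31360 CPM in APAP_PBS, and all 3 were called higher, at log2 fold changes of 1.19 ± 0.17, 1.03 ± 0.17 and 0.93 ± 0.19. Itih4, an inter-alpha-trypsin inhibitor heavy chain, stood at 1262 and 1469 CPM in CTRL and 4126, 3778 and 4726 CPM in APAP_PBS (log2 fold change 1.62 ± 0.17 (SE), edgeR adjusted p = 0.000301). Hpx, hemopexin, which binds heme, stood at 3575 and 3229 CPM in CTRL and 6744, 5855 and 7080 CPM in APAP_PBS (log2 fold change 0.95 ± 0.15 (SE), edgeR adjusted p = 0.00345). Pck1, the cytosolic PEP carboxykinase of gluconeogenesis, stood at 371 and 823 CPM in CTRL and 2721, 1495 and 2496 CPM in APAP_PBS (log2 fold change 1.91 ± 0.41 (SE), edgeR adjusted p = 0.0281), with the widest spread among these genes. Fgg lost its call without CTRL replicate 2 (edgeR adjusted p = 0.0764). Pck1 lost its call without CTRL replicate 1 or APAP_PBS replicate 1 or 3 or APAP_MSC replicate 1 (edgeR adjusted p 0.0547 to 0.0786). Pck1 was not called with no filter on low counts or only the 5 compared libraries in the fit (edgeR adjusted p 0.0673 to 0.0681).

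On the other side, Scd1, the stearoyl-CoA desaturase at chromosome 19, 44394455 to 44407879, minus strand in GRCm38, alone made up 16.4% of the summed loss. It stood at 18920 and 26360 CPM in CTRL and 1800, 1528 and 1750 CPM in APAP_PBS (log2 fold change -3.74 ± 0.73 (SE), edgeR adjusted p = 0.0308), and its APAP_PBS libraries agreed within a narrow range. Cyp3a11, a P450 of drug metabolism, stood at 7475 and 6218 CPM in CTRL and 2552, 2906 and 2828 CPM in APAP_PBS (log2 fold change -1.31 ± 0.15 (SE), edgeR adjusted p = 0.000481). Large losses also came from Fabp1, Scp2, Fasn and major urinary proteins, pheromone carriers that the male mouse liver secretes in bulk. Mup19, Mup22, Mup18 and Mup11 were called, at -2.51 ± 0.50, -0.92 ± 0.22, -1.05 ± 0.24 and -1.96 ± 0.42, but 77.8% to 100% of their 50-base windows are shared with other members, so single values are uncertain. Summed over the 22 members in the table the family stood at 130200 and 81860 CPM in CTRL and 54210, 39020 and 42860 CPM in APAP_PBS, a ratio of the group means of 0.428, with 6 of the 20 tested members called lower. The groups did not overlap in this sum, and the difference between the CTRL libraries was larger than that among the APAP_PBS libraries. Mup22 lost its call without CTRL replicate 1 or APAP_PBS replicate 2 or 3 (edgeR adjusted p 0.0829 to 0.166). Mup11 lost its call without CTRL replicate 1 or APAP_PBS replicate 3 or APAP_MSC replicate 1 (edgeR adjusted p 0.0588 to 0.148). Mup19 lost its call without CTRL replicate 1 or 2 or APAP_PBS replicate 1 or 3 (edgeR adjusted p 0.0621 to 0.13). Mup18 lost its call without CTRL replicate 1 or APAP_PBS replicate 1, 2 or 3 (edgeR adjusted p 0.06 to 0.152). Scd1 lost its call without any 1 of the 5 compared libraries (edgeR adjusted p 0.0882 to 0.117). Scp2 lost its call without any 1 of the 5 compared libraries or APAP_MSC replicate 1 (edgeR adjusted p 0.0563 to 0.189). Scd1 and Mup19 were not called with no filter on low counts (edgeR adjusted p 0.0546 to 0.0589). Mup11 was not called with no filter on low counts or only the 5 compared libraries in the fit (edgeR adjusted p 0.0694 to 0.0762). Scp2 was not called with library size alone or the FPKM values (edgeR or limma adjusted p 0.052 to 0.0817).

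Ranked by p, the list brought forward genes with small errors. Isyna1, which makes inositol from glucose 6-phosphate, stood at 3.35 and 4.14 CPM in CTRL and 19.4, 15.4 and 16.8 CPM in APAP_PBS (log2 fold change 2.18 ± 0.18 (SE), edgeR adjusted p = 6.1e-05). Fgl1, a fibrinogen-like protein secreted by hepatocytes, stood at 299.8 and 222 CPM in CTRL and 1533, 1539 and 1710 CPM in APAP_PBS (log2 fold change 2.61 ± 0.17 (SE), edgeR adjusted p = 1.47e-05). Stat3, the transcription factor through which interleukin-6 acts on hepatocytes, stood at 76.5 and 73.8 CPM in CTRL and 197, 167 and 196 CPM in APAP_PBS (log2 fold change 1.31 ± 0.12 (SE), edgeR adjusted p = 0.000192). Lrg1 and Apcs, secreted acute phase proteins, changed by 2.24 ± 0.18 and 2.19 ± 0.17 on the log2 scale. Among the decreases, Gpam, which makes the first intermediate of triglycerides, stood at 878 and 943 CPM in CTRL and 168, 233 and 202 CPM in APAP_PBS (log2 fold change -2.18 ± 0.15 (SE), edgeR adjusted p = 1.47e-05). Acly, which makes cytosolic acetyl-CoA from citrate, stood at 1259 and 1833 CPM in CTRL and 202, 218 and 200.3 CPM in APAP_PBS (log2 fold change -2.90 ± 0.17 (SE), edgeR adjusted p = 6.98e-06), with APAP_PBS libraries that were almost equal. Each of the genes of this ranking named here kept its call without each library in turn.

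Functions outside the usual lists of liver injury were then described with 45 gene lists, of which 1491 genes were tested. By edgeR's adjusted p, the lists with the largest shares of lower members were pyruvate and citric acid cycle enzymes, with 18 of 37, carboxylesterases and lipases, with 13 of 28, and peroxisomal genes, with 17 of 45, against 5.97% of all genes. In each of these 3 lists 0 members were called higher by edgeR. At an unadjusted p under 0.05 their higher members numbered 1, 1 and 4, and by DESeq2 0, 0 and 1. On the other side, MAP kinase phosphatases and feedback genes had 5 higher of 24, extracellular protease inhibitors 4 of 24 and axon guidance molecules 6 of 39, against 4.29% of all genes. The median log2 fold change was -0.44, -0.59 and -0.29 in the first 3 lists and 0.36, 0.13 and 0.37 in the last 3, against 0.03 over all genes tested. Nothing particular to a list was tested. The shares of all genes are not matched for level, and among the 3181 genes with the highest mean CPM 461 were lower. Of the 42 lists with a called member, 38 had their number of calls fall by over 1.5 times when 1 of the 5 compared libraries was left out, and the other 4 were the carboxylesterase, lipid droplet, aquaporin and sphingolipid lists.

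**Figure D3:**
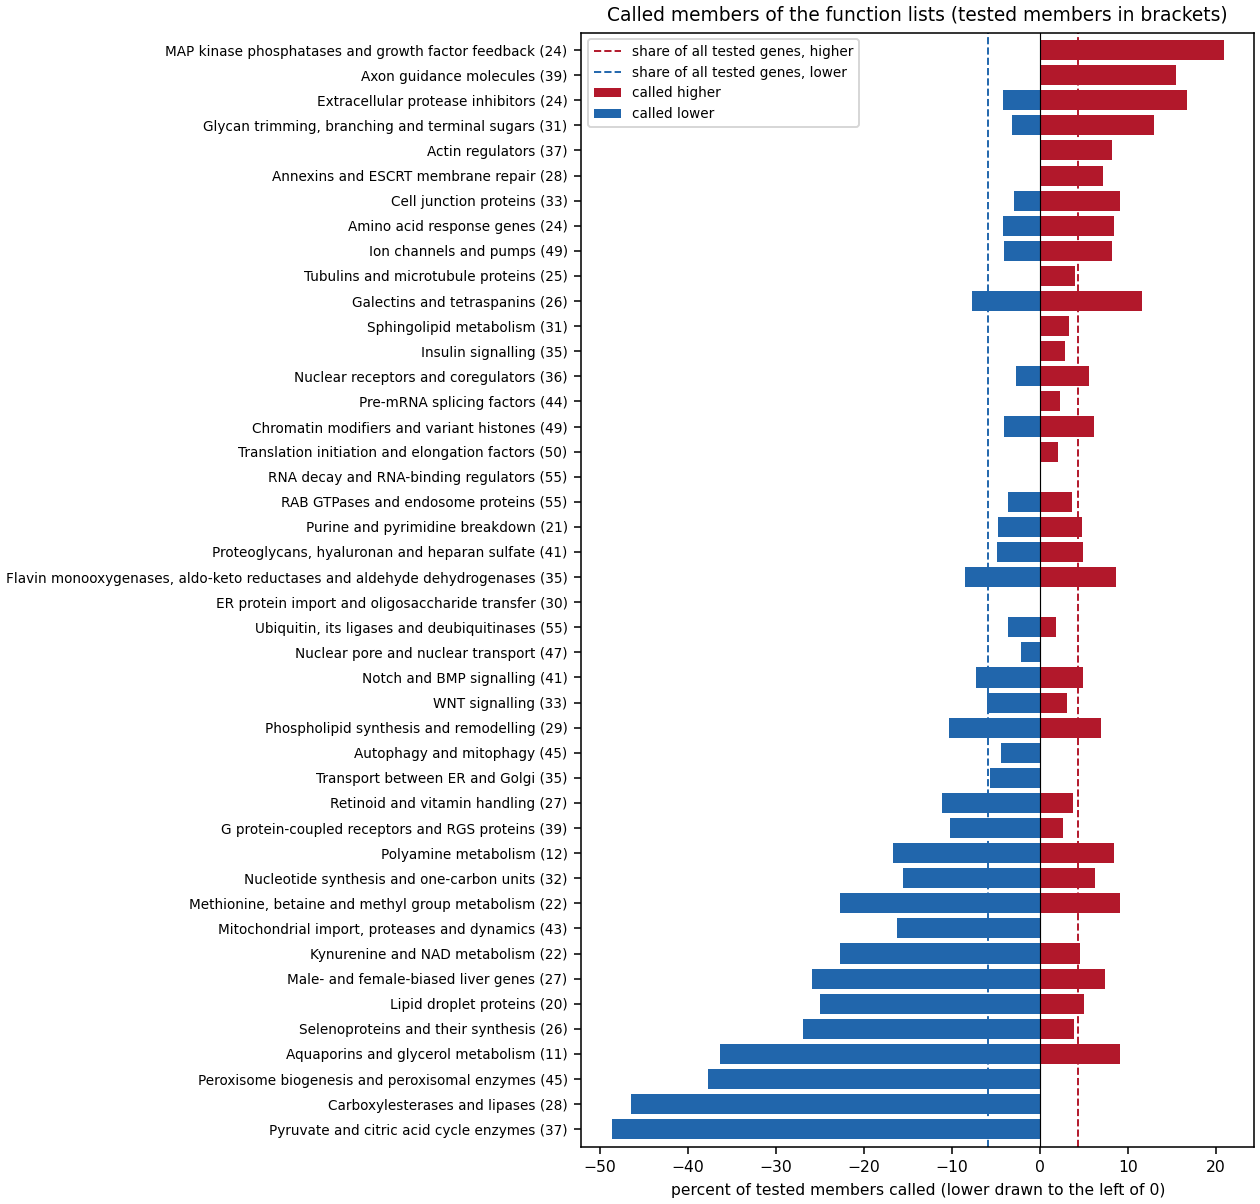
Percent of tested members called higher (red, right) and lower (blue, left) in each function list with at least 10 tested members, with dashed lines at 4.29% and 5.97%, the shares of all 12722 genes. The bars reach farthest to the left for the pyruvate and citric acid cycle, carboxylesterase and peroxisome lists and farthest to the right for the MAP kinase phosphatase list.

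Of 37 genes of pyruvate and the citric acid cycle, with regulators and cytosolic relatives among them, 18 were lower. These covered most steps of the route between pyruvate and fumarate. Pdhb, the beta subunit of the first enzyme of the pyruvate dehydrogenase complex (chromosome 14, 8165996 to 8173025, minus strand in GRCm38), stood at 233 and 248 CPM in CTRL and 71.1, 83.1 and 68.9 CPM in APAP_PBS (log2 fold change -1.69 ± 0.13 (SE), edgeR adjusted p = 3.83e-05), so that every APAP_PBS library was far below both CTRL libraries. Cs, citrate synthase, which starts the cycle, stood at 158 and 161 CPM in CTRL and 77.2, 97.7 and 79.5 CPM in APAP_PBS (log2 fold change -0.91 ± 0.13 (SE), edgeR adjusted p = 0.002). Sdhb, the iron-sulfur subunit of succinate dehydrogenase, stood at 189 and 203 CPM in CTRL and 98.98, 113 and 109 CPM in APAP_PBS (log2 fold change -0.87 ± 0.14 (SE), edgeR adjusted p = 0.00483). The other members were named after their values were seen. The 4 succinate dehydrogenase subunits all passed, with Sdha at -0.68 ± 0.13, Sdhc at -0.50 ± 0.11 and Sdhd at -0.55 ± 0.12, and so did the 3 subunits of the NAD-linked isocitrate dehydrogenase, with Idh3a at -0.75 ± 0.17, Idh3b at -0.60 ± 0.11 and Idh3g at -0.49 ± 0.11. Of the pyruvate dehydrogenase complex, Pdha1 (-0.77 ± 0.15) and Dlat (-0.80 ± 0.14) passed, while Dld and Pdhx did not, at -0.25 ± 0.17 and -0.38 ± 0.12. The remaining lower members were Idh1 (-0.78 ± 0.16) and Mdh1 (-0.75 ± 0.15), cytosolic relatives of cycle enzymes, and Dlst (-0.59 ± 0.11) and Suclg1 (-0.44 ± 0.11), which act between 2-oxoglutarate and succinate. The kinases that switch this complex off were also lower, with Pdk1 at -1.75 ± 0.34, Pdk2 at -0.77 ± 0.15 and Pdk4 at -0.94 ± 0.17 on the log2 scale. A kinase and a phosphatase of the same complex, Pdk3 and Pdp1, had fitted values of 0.53 ± 0.77 and 0.79 ± 0.35 and were not called. Mpc1, a subunit of the mitochondrial pyruvate carrier, stood at a mean of 163 CPM in both groups, and Pcx, pyruvate carboxylase, which feeds gluconeogenesis, stood at 456 CPM in CTRL and 426 CPM in APAP_PBS (edgeR adjusted p = 0.73). The number of lower members was 12 with library size alone, 9 with the FPKM values, 11 without CTRL replicate 1 or without APAP_PBS replicate 1, and 5 without CTRL replicate 2. Pdk4 lost its call without CTRL replicate 2 (edgeR adjusted p = 0.0522). Pdk4 was not called with the FPKM values (limma adjusted p = 0.0646).

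**Figure D4:**
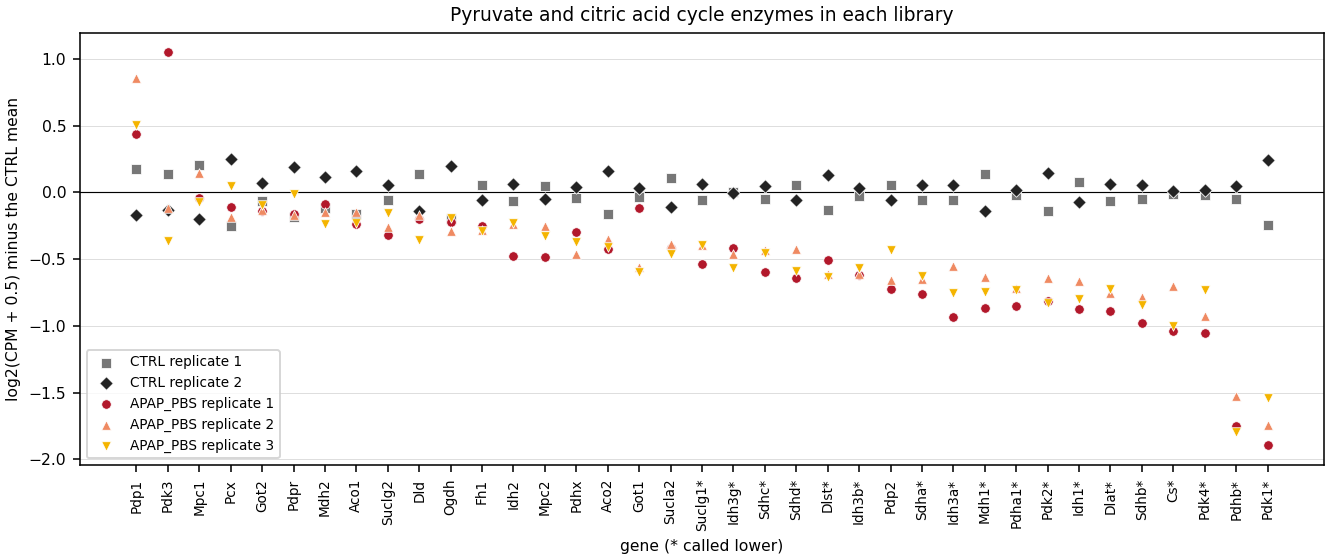
Effect in each library, log2(CPM + 0.5) minus the mean of the CTRL libraries (y axis), for the 37 tested enzymes of pyruvate and the citric acid cycle, ordered by fold change, with an asterisk on the 18 called lower. From about the middle of the row onward the 3 APAP_PBS points lie below both CTRL points, lowest for Pdhb and Pdk1.

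Carboxylesterases hydrolyse esters of drugs and lipids in the ER of hepatocytes, and 8 of the 13 tested members of families 1 to 3 were lower. Ces1e stood at 206 and 201 CPM in CTRL and 73.4, 79.6 and 78.3 CPM in APAP_PBS (log2 fold change -1.40 ± 0.11 (SE), edgeR adjusted p = 6.1e-05). Ces2e stood at 204 and 229 CPM in CTRL and 77.7, 105 and 104 CPM in APAP_PBS (log2 fold change -1.18 ± 0.14 (SE), edgeR adjusted p = 0.000703). Ces2c stood at 72.1 and 62.7 CPM in CTRL and 19.1, 17.4 and 21 CPM in APAP_PBS (log2 fold change -1.81 ± 0.15 (SE), edgeR adjusted p = 8.49e-05). In each the groups were far apart, though 36.1% of the windows of Ces2c are shared with pseudogenes. Pnpla7, a lysophospholipase of the ER and lipid droplets, stood at 118 and 125 CPM in CTRL and 48.05, 49.7 and 53.1 CPM in APAP_PBS (log2 fold change -1.27 ± 0.11 (SE), edgeR adjusted p = 7.11e-05). The list had 9 to 12 lower members when single compared libraries were left out. Of 20 lipid droplet proteins 5 were lower and Plin4 was higher. Rdh11, a retinal reductase, stood at 142 and 127 CPM in CTRL and 54.4, 53.8 and 49.1 CPM in APAP_PBS (log2 fold change -1.35 ± 0.12 (SE), edgeR adjusted p = 9.79e-05). Hsd17b7, a sterol reductase, changed by -0.97 ± 0.13 and Abhd5, which activates the lipase of droplets, by -1.11 ± 0.18 on the log2 scale. Of 27 retinoid and vitamin genes 3 were lower and 1 higher: Rdh16, a retinol dehydrogenase, at -1.41 ± 0.23, Slc23a1, a vitamin C transporter, at -0.80 ± 0.14, Rbp4, the retinol carrier of plasma, at -0.45 ± 0.13, and Ttpa, which transfers vitamin E, at 0.74 ± 0.20. Slc23a1 lost its call without CTRL replicate 2 (edgeR adjusted p = 0.0545). Ttpa lost its call without any 1 of the 5 compared libraries (edgeR adjusted p 0.0788 to 0.211). Rbp4 lost its call without any 1 of the 5 compared libraries or APAP_MSC replicate 1 (edgeR adjusted p 0.0537 to 0.196). Slc23a1 was not called with the FPKM values (limma adjusted p = 0.0542). Rbp4 was not called with library size alone, no filter on low counts or the FPKM values (edgeR or limma adjusted p 0.0623 to 0.291).

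Peroxisomes oxidise very long and branched fatty acids, and 17 of 45 of their genes were lower. Acaa1b, a thiolase of peroxisomal beta-oxidation, stood at 599.7 and 744 CPM in CTRL and 216, 178 and 157 CPM in APAP_PBS (log2 fold change -1.87 ± 0.16 (SE), edgeR adjusted p = 8.36e-05), with 30.5% of its windows shared with Acaa1a. Abcd3, a transporter that brings acyl-CoA into the peroxisome, stood at 812 and 867 CPM in CTRL and 262, 276 and 265 CPM in APAP_PBS (log2 fold change -1.65 ± 0.15 (SE), edgeR adjusted p = 0.000176). Ddo, which oxidises D-aspartate, stood at 19.01 and 24.4 CPM in CTRL and 10.2, 10.6 and 9.71 CPM in APAP_PBS (log2 fold change -1.1 ± 0.15 (SE), edgeR adjusted p = 0.00189). Pecr, a trans-2-enoyl-CoA reductase, stood at 204 and 195 CPM in CTRL and 113, 138 and 125 CPM in APAP_PBS (log2 fold change -0.67 ± 0.13 (SE), edgeR adjusted p = 0.0104). The other called members fell less, and the list depended on scaling: with library size alone 5 were lower and 4 higher, with the FPKM values 5 and 2, and without single compared libraries 4 to 7 were lower. Among 43 genes of mitochondrial import, proteases and dynamics 7 were lower, with Phb, prohibitin, at 114 and 113 CPM in CTRL and 78.1, 78.4 and 79.04 CPM in APAP_PBS (log2 fold change -0.53 ± 0.10 (SE), edgeR adjusted p = 0.00791), but 0 with library size alone, where 1 was higher and the median changed sign from -0.20 to 0.03. Without single compared libraries 1 or 2 members of that list were lower. Of the windows of Phb, 30.1% are shared with other genes. Pecr lost its call without CTRL replicate 1 or 2 (edgeR adjusted p 0.0522 to 0.0651). Phb was not called with library size alone or the FPKM values (edgeR or limma adjusted p 0.0885 to 0.164).

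Selenoproteins hold selenium in their active sites, and 7 of 26 genes for them or their synthesis were lower and 1 higher. Dio1, the deiodinase that activates thyroid hormone in liver, stood at 99.3 and 99.7 CPM in CTRL and 45.2, 27.2 and 22.5 CPM in APAP_PBS (log2 fold change -1.65 ± 0.26 (SE), edgeR adjusted p = 0.00722), with replicate 1 the least reduced. Sephs2, which makes the selenium donor, stood at 817 and 887 CPM in CTRL and 531, 549.9 and 547 CPM in APAP_PBS (log2 fold change -0.65 ± 0.13 (SE), edgeR adjusted p = 0.0115). Gpx1, the cytosolic glutathione peroxidase, stood at 1030 and 1007 CPM in CTRL and 676, 677 and 685 CPM in APAP_PBS (log2 fold change -0.58 ± 0.15 (SE), edgeR adjusted p = 0.029), with APAP_PBS libraries that were almost equal. Eefsec, the elongation factor for selenocysteine, changed by -0.47 ± 0.12. With library size alone 2 members were lower and 2 higher, and the median changed sign from -0.17 to 0.07. Without single compared libraries 1 to 3 members were lower. Sephs2 lost its call without CTRL replicate 2 or APAP_PBS replicate 1 (edgeR adjusted p 0.0512 to 0.083). Gpx1 and Eefsec lost their calls without any 1 of the 5 compared libraries (edgeR adjusted p 0.0625 to 0.142). Gpx1 and Eefsec were not called with library size alone or the FPKM values (edgeR or limma adjusted p 0.0869 to 0.235).

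**Figure D5:**
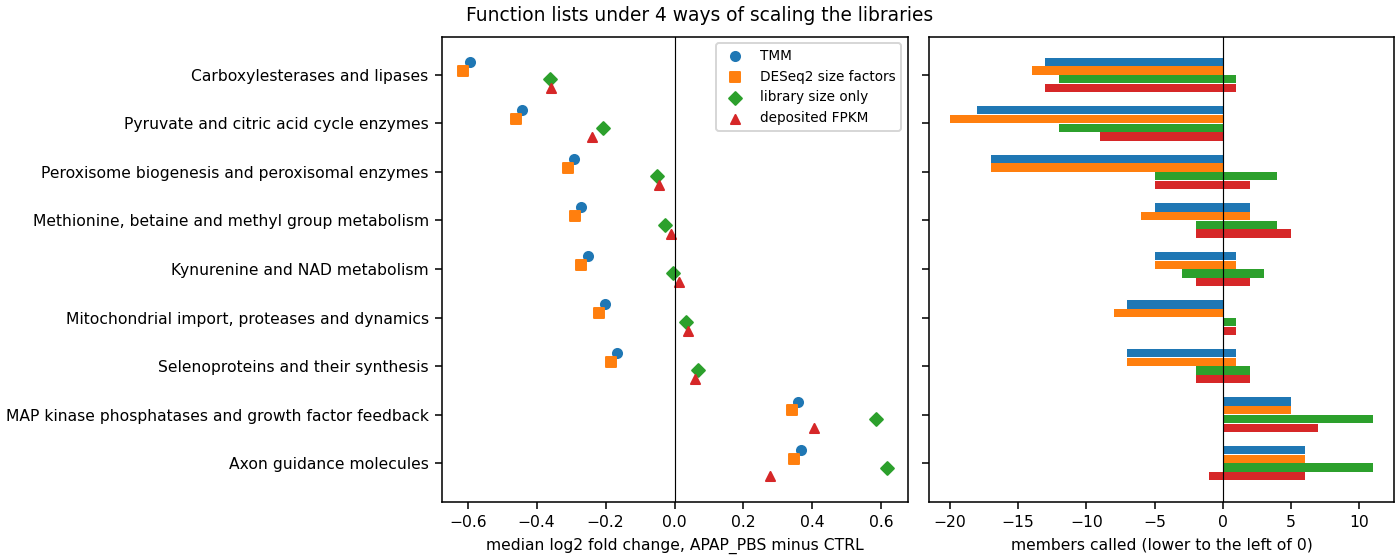
Median log2 fold change (left, x axis) and number of members called (right, higher to the right of 0 and lower to the left) of 9 function lists under TMM, DESeq2 size factors, library size alone and the deposited FPKM values. The carboxylesterase and citric acid cycle lists stay below 0 under all 4, while the medians of the mitochondrial import and selenoprotein lists lie above 0 with library size alone and with FPKM.

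Genes of methyl group metabolism moved in both directions, with 5 of 22 lower and 2 higher. Gamt, which makes creatine, stood at 103 and 124 CPM in CTRL and 49.9, 52.4 and 51.8 CPM in APAP_PBS (log2 fold change -1.15 ± 0.14 (SE), edgeR adjusted p = 0.00102). Gnmt, which disposes of excess S-adenosylmethionine, stood at 1383 and 1598 CPM in CTRL and 704, 799 and 754 CPM in APAP_PBS (log2 fold change -0.99 ± 0.19 (SE), edgeR adjusted p = 0.0084). Sardh, which oxidises sarcosine, changed by -0.58 ± 0.12. Nnmt, which methylates nicotinamide, rose and stood at 52.5 and 30.1 CPM in CTRL and 146, 109.7 and 95.1 CPM in APAP_PBS (log2 fold change 1.5 ± 0.27 (SE), edgeR adjusted p = 0.0103), with replicate 1 highest. Of 22 kynurenine and NAD genes 5 were lower and 1 higher. Nmrk1, a nicotinamide riboside kinase, stood at 15.2 and 20.9 CPM in CTRL and 8.59, 7.46 and 7.37 CPM in APAP_PBS (log2 fold change -1.22 ± 0.17 (SE), edgeR adjusted p = 0.00185). Haao and Qprt, which lead from kynurenine to NAD, changed by -0.83 ± 0.16 and -0.44 ± 0.11. Cd38, which breaks NAD down, stood at 9.68 and 11.4 CPM in CTRL and 22.7, 19.7 and 19.6 CPM in APAP_PBS (log2 fold change 0.96 ± 0.15 (SE), edgeR adjusted p = 0.00314). With library size alone 4 methyl genes were higher and 2 lower, and 3 NAD genes were higher and 3 lower. Without single compared libraries 1 to 3 members of each list were lower. Gnmt lost its call without CTRL replicate 2 (edgeR adjusted p = 0.0682). Haao lost its call without CTRL replicate 1 (edgeR adjusted p = 0.0645). Sardh lost its call without CTRL replicate 2 or APAP_PBS replicate 1 (edgeR adjusted p 0.0661 to 0.129). Qprt lost its call without CTRL replicate 1 or 2 or APAP_PBS replicate 1 or 3 (edgeR adjusted p 0.09 to 0.122). Sardh and Qprt were not called with library size alone or the FPKM values (edgeR or limma adjusted p 0.0856 to 0.245).

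One-carbon and nucleotide genes had 5 of 32 members lower and 2 higher. Serine hydroxymethyltransferases, which move carbon from serine to folate, fell while Psat1 rose: Shmt1, the cytosolic enzyme, stood at 187 and 206 CPM in CTRL and 103, 107 and 109 CPM in APAP_PBS (log2 fold change -0.89 ± 0.10 (SE), edgeR adjusted p = 0.000689), and Shmt2, the mitochondrial one, changed by -0.55 ± 0.12. Umps, which completes the pyrimidine ring, changed by -0.71 ± 0.15. Leaving out any single compared library left 1 to 3 members lower and 0 higher by edgeR, whereas DESeq2 called 2 higher and 5 higher members had an unadjusted p under 0.05 with all libraries. Of 21 genes of purine and pyrimidine breakdown, Uox, urate oxidase, was lower at 2621 and 2599 CPM in CTRL and 889.9, 1115 and 1109 CPM in APAP_PBS (log2 fold change -1.33 ± 0.30 (SE), edgeR adjusted p = 0.0282). Xdh, xanthine dehydrogenase, which makes urate, was higher, at 105 and 95.6 CPM in CTRL and 168, 155 and 160.1 CPM in APAP_PBS (log2 fold change 0.68 ± 0.15 (SE), edgeR adjusted p = 0.0165). Of 12 polyamine genes, Sat1, which acetylates spermidine for export, changed by 0.61 ± 0.14, Paox, an oxidase of acetylated polyamines, by -0.67 ± 0.17, and Azin1, an antizyme inhibitor, by -0.51 ± 0.12. Umps and Sat1 lost their calls without CTRL replicate 2 or APAP_PBS replicate 1 (edgeR adjusted p 0.0526 to 0.147). Shmt2 lost its call without CTRL replicate 2 or APAP_PBS replicate 2 or 3 (edgeR adjusted p 0.0526 to 0.124). Xdh and Azin1 lost their calls without CTRL replicate 1 or 2 or APAP_PBS replicate 1 or 3 (edgeR adjusted p 0.0519 to 0.112). Uox and Paox lost their calls without any 1 of the 5 compared libraries (edgeR adjusted p 0.0553 to 0.162). Uox was not called with no filter on low counts (edgeR adjusted p = 0.0581). Shmt2, Umps, Paox and Azin1 were not called with library size alone or the FPKM values (edgeR or limma adjusted p 0.0622 to 0.221).

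Of 11 aquaporin and glycerol genes 4 were lower and 1 higher. Aqp8, a water channel of the bile canaliculus and mitochondria, stood at 337 and 263 CPM in CTRL and 49.01, 57.98 and 60.1 CPM in APAP_PBS (log2 fold change -2.43 ± 0.26 (SE), edgeR adjusted p = 0.00141). Gpd2, the mitochondrial glycerol 3-phosphate dehydrogenase, stood at 48.99 and 55.5 CPM in CTRL and 14.6, 16.1 and 15.6 CPM in APAP_PBS (log2 fold change -1.76 ± 0.15 (SE), edgeR adjusted p = 8.27e-05), with 3 nearly equal APAP_PBS libraries. Tkfc, which phosphorylates dihydroxyacetone and glyceraldehyde, stood at 322 and 535 CPM in CTRL and 127, 119.6 and 123.2 CPM in APAP_PBS (log2 fold change -1.80 ± 0.20 (SE), edgeR adjusted p = 0.000807). Gk, glycerol kinase, moved the other way, at 75.2 and 62.4 CPM in CTRL and 124, 124 and 125 CPM in APAP_PBS (log2 fold change 0.86 ± 0.14 (SE), edgeR adjusted p = 0.00461), and its APAP_PBS libraries were nearly equal. These 4 genes kept their calls without each library in turn and under every other setting tried.

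Of 27 genes known to differ between male and female mouse liver 7 were lower and 2 higher, with a median of -0.83, and 2 to 4 were lower without single compared libraries. The labels do not give the sex of the mice. Cyp2u1, a P450 that hydroxylates fatty acids, stood at 25.99 and 24.3 CPM in CTRL and 6.84, 11.1 and 11.6 CPM in APAP_PBS (log2 fold change -1.35 ± 0.20 (SE), edgeR adjusted p = 0.00274). Cyp4a12a, a P450 of male mouse liver, stood at 608 and 416 CPM in CTRL and 254, 251 and 208 CPM in APAP_PBS (log2 fold change -1.1 ± 0.22 (SE), edgeR adjusted p = 0.0132), with 48.9% of its windows shared with Cyp4a12b. Selenbp1, a selenium-binding protein, changed by -0.83 ± 0.15, with 46.3% of its windows shared with Selenbp2. Prlr, the prolactin receptor and one of the higher members, stood at 52.5 and 55.3 CPM in CTRL and 101, 104 and 121 CPM in APAP_PBS (log2 fold change 1.01 ± 0.17 (SE), edgeR adjusted p = 0.00579). Of 36 nuclear receptors and coregulators 2 were higher and 1 lower, or 8.33% called, against 10.3% of all genes. Nr1i3, the xenobiotic receptor CAR, stood at 26.6 and 43.6 CPM in CTRL and 64.6, 83.2 and 78.9 CPM in APAP_PBS (log2 fold change 1.1 ± 0.20 (SE), edgeR adjusted p = 0.00934). Nr1i2, the xenobiotic receptor PXR, changed by 0.41 ± 0.10, while Ppargc1b, a coactivator of oxidative and lipogenic genes, changed by -1.68 ± 0.47. Of 35 flavin monooxygenases, aldo-keto reductases and aldehyde or alcohol dehydrogenases 3 were higher and 3 lower, and 5 and 0 with library size alone. Adh4, an alcohol dehydrogenase, stood at 93.7 and 73.1 CPM in CTRL and 176, 221 and 205 CPM in APAP_PBS (log2 fold change 1.27 ± 0.19 (SE), edgeR adjusted p = 0.00336). Selenbp1 lost its call without CTRL replicate 2 (edgeR adjusted p = 0.0657). Cyp4a12a lost its call without CTRL replicate 1 or APAP_PBS replicate 3 (edgeR adjusted p 0.0514 to 0.0971). Nr1i2 lost its call without any 1 of the 5 compared libraries (edgeR adjusted p 0.0697 to 0.14). Ppargc1b lost its call without CTRL replicate 1 or 2 or APAP_PBS replicate 1 or 3 or APAP_MSC replicate 1 (edgeR adjusted p 0.0564 to 0.261). Ppargc1b was not called with the FPKM values (limma adjusted p = 0.0691).

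Feedback on growth factor signalling was higher in 5 of 24 genes and lower in 0 by edgeR, with 0 lower at an unadjusted p under 0.05 and by DESeq2. Dusp10, a phosphatase of JNK and p38, stood at 1.92 and 2.54 CPM in CTRL and 7.97, 7.70 and 7.49 CPM in APAP_PBS (log2 fold change 1.77 ± 0.30 (SE), edgeR adjusted p = 0.00568), with 3 nearly equal APAP_PBS libraries. Dusp4, a nuclear phosphatase of ERK, stood at 1.42 and 1.13 CPM in CTRL and 8.87, 6.88 and 5.50 CPM in APAP_PBS (log2 fold change 2.48 ± 0.53 (SE), edgeR adjusted p = 0.0203). Errfi1, which binds and inhibits the EGF receptor, stood at 682 and 504 CPM in CTRL and 1160, 986 and 1112 CPM in APAP_PBS (log2 fold change 0.87 ± 0.17 (SE), edgeR adjusted p = 0.0085). Btg1, an antiproliferative protein, stood at 58.3 and 52.8 CPM in CTRL and 90.2, 89.1 and 91.6 CPM in APAP_PBS (log2 fold change 0.70 ± 0.12 (SE), edgeR adjusted p = 0.00678). Without CTRL replicate 2, 1 member was called, and 3 were called without CTRL replicate 1 or without APAP_PBS replicate 1. Of 35 insulin signalling genes, Akt1, a central kinase of the pathway, was higher at 39.3 and 42.5 CPM in CTRL and 62.3, 52.02 and 55.8 CPM in APAP_PBS (log2 fold change 0.47 ± 0.12 (SE), edgeR adjusted p = 0.0362). Errfi1 and Btg1 lost their calls without CTRL replicate 2 (edgeR adjusted p 0.0576 to 0.0744). Dusp4 lost its call without CTRL replicate 1 or 2 or APAP_PBS replicate 1 (edgeR adjusted p 0.0583 to 0.144). Akt1 lost its call without any 1 of the 5 compared libraries or APAP_MSC replicate 1 (edgeR adjusted p 0.0505 to 0.172).

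Axon guidance molecules, which also direct vessels and immune cells, had 6 of 39 members higher and 0 lower by edgeR, with 2 lower at an unadjusted p under 0.05 and 1 by DESeq2. Sema6a, a transmembrane semaphorin, stood at 3.63 and 5.08 CPM in CTRL and 9.44, 11.3 and 10.5 CPM in APAP_PBS (log2 fold change 1.24 ± 0.29 (SE), edgeR adjusted p = 0.023). Sema3f, a secreted one, stood at 2.49 and 4.00 CPM in CTRL and 9.55, 7.25 and 6.79 CPM in APAP_PBS (log2 fold change 1.25 ± 0.33 (SE), edgeR adjusted p = 0.0367). Plxnc1, a semaphorin receptor, stood at 20.9 and 17.7 CPM in CTRL and 33.9, 30.1 and 36.2 CPM in APAP_PBS (log2 fold change 0.79 ± 0.15 (SE), edgeR adjusted p = 0.00835). Sema3e, a secreted ligand of plexin D1, stood at 0.142 and 0.141 CPM in CTRL and 1.41, 3.73 and 1.93 CPM in APAP_PBS, with 3 counts or fewer in each CTRL library. In these 4 genes, as in all genes called higher, every APAP_PBS library was above every CTRL library. Without CTRL replicate 2, 0 members were called by edgeR, and 2 or 3 were called without another compared library. Plxnc1 lost its call without CTRL replicate 2 (edgeR adjusted p = 0.076). Sema3e lost its call without CTRL replicate 1 or 2 (edgeR adjusted p 0.115 to 0.148). Sema6a lost its call without any 1 of the 5 compared libraries (edgeR adjusted p 0.0528 to 0.139). Sema3f lost its call without any 1 of the 5 compared libraries or APAP_MSC replicate 1 (edgeR adjusted p 0.0589 to 0.189). Sema3e was not called with the FPKM values (limma adjusted p = 0.0671).

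Genes of receptors and of channels were called in shares near that of all genes, 12.8% and 12.2% against 10.3%. They included Rgs16, Hcn3 and Chrna4, already named among the largest decreases by fold, beside small increases. Of 39 G protein-coupled receptors and RGS proteins 4 were lower, Rgs16 among them, and 1 was higher, with 0 or 1 lower without single compared libraries. Sucnr1, the succinate receptor, stood at 80.9 and 55.4 CPM in CTRL and 10, 16.4 and 14.6 CPM in APAP_PBS (log2 fold change -2.31 ± 0.43 (SE), edgeR adjusted p = 0.0216). F2r, a thrombin receptor, changed by -0.64 ± 0.13. Adora1, an adenosine receptor, stood at 11.1 and 10.2 CPM in CTRL and 21.6, 19.2 and 18.8 CPM in APAP_PBS (log2 fold change 0.90 ± 0.18 (SE), edgeR adjusted p = 0.011). Of 49 ion channels and pumps 4 were higher and 2, Hcn3 and Chrna4, were lower, with 0 or 1 higher without single compared libraries. Piezo1, a channel opened by membrane stretch, stood at 3.63 and 3.71 CPM in CTRL and 8.20, 6.83 and 5.97 CPM in APAP_PBS (log2 fold change 0.93 ± 0.22 (SE), edgeR adjusted p = 0.0236), and Atp2b1, a calcium pump of the plasma membrane, changed by 0.46 ± 0.11. Of 24 amino acid response genes 2 were higher and 1 lower, or 12.5% called, while 9 were higher and 5 lower at an unadjusted p under 0.05. Trib3, a pseudokinase induced by amino acid shortage, stood at 3.20 and 3.34 CPM in CTRL and 5.99, 13.4 and 10.2 CPM in APAP_PBS (log2 fold change 1.60 ± 0.42 (SE), edgeR adjusted p = 0.0454). Cebpb, a transcription factor of the acute phase, stood at 45.9 and 44.9 CPM in CTRL and 124, 83.2 and 80.7 CPM in APAP_PBS (log2 fold change 1.08 ± 0.22 (SE), edgeR adjusted p = 0.0149), and Sesn1, a leucine sensor, changed by -0.69 ± 0.19 on the log2 scale. F2r and Adora1 lost their calls without CTRL replicate 2 (edgeR adjusted p 0.0814 to 0.115). Cebpb lost its call without CTRL replicate 1 or 2 (edgeR adjusted p 0.0841 to 0.0975). Piezo1 lost its call without CTRL replicate 1 or 2 or APAP_PBS replicate 1 or 2 (edgeR adjusted p 0.0556 to 0.113). Sucnr1 and Atp2b1 lost their calls without any 1 of the 5 compared libraries (edgeR adjusted p 0.0509 to 0.104). Trib3 lost its call without CTRL replicate 1 or 2 or APAP_PBS replicate 2 or 3 or APAP_MSC replicate 1 (edgeR adjusted p 0.0727 to 0.196). Sesn1 lost its call without any 1 of the 5 compared libraries or APAP_MSC replicate 1 (edgeR adjusted p 0.0594 to 0.15). Trib3 was not called with no filter on low counts (edgeR adjusted p = 0.0792). F2r and Sesn1 were not called with library size alone or the FPKM values (edgeR or limma adjusted p 0.0753 to 0.119).

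Enzymes that trim and cap glycans had 4 of 31 members higher and 1 lower. Gmds, which starts the synthesis of GDP-fucose, stood at 2.63 and 2.35 CPM in CTRL and 6.50, 7.62 and 7.37 CPM in APAP_PBS (log2 fold change 1.53 ± 0.19 (SE), edgeR adjusted p = 0.00115). St3gal4, a sialyltransferase, changed by 0.60 ± 0.14, and the branching enzymes moved apart, with Mgat5 at 0.59 ± 0.14 and Mgat2 at -0.67 ± 0.14 on the log2 scale. Of 24 extracellular protease inhibitors 4 were higher and 1 lower. Within the inter-alpha-trypsin heavy chains, which attach to hyaluronan, Itih3 stood at 658 and 677 CPM in CTRL and 2040, 1673 and 2156 CPM in APAP_PBS (log2 fold change 1.55 ± 0.17 (SE), edgeR adjusted p = 0.000517) and rose with Itih4, whereas Itih5 stood at 24.4 and 28.7 CPM in CTRL and 10.8, 13.6 and 15.97 CPM in APAP_PBS (log2 fold change -0.98 ± 0.20 (SE), edgeR adjusted p = 0.0132). Among 41 genes of proteoglycans, hyaluronan and heparan sulfate, Sdc4, a syndecan, changed by 0.62 ± 0.15 and Hyal1, a hyaluronidase, by 0.53 ± 0.13, while Extl1, a glycosyltransferase of the heparan sulfate family, stood at 6.48 and 6.72 CPM in CTRL and 2.32, 2.28 and 1.17 CPM in APAP_PBS (log2 fold change -1.77 ± 0.36 (SE), edgeR adjusted p = 0.0115) and Hs3st3b1, a sulfotransferase, changed by -0.68 ± 0.13. Hyal1 shares 49.7% of its 50-base windows, chiefly with Naa80 and Hyal3. Of the proteoglycan list 9.76% was called, against 10.3% of all genes. Extl1 and Hs3st3b1 lost their calls without CTRL replicate 2 (edgeR adjusted p = 0.0665). Mgat2 and Itih5 lost their calls without CTRL replicate 2 or APAP_PBS replicate 1 (edgeR adjusted p 0.0506 to 0.116). Sdc4 lost its call without CTRL replicate 2 or APAP_PBS replicate 1 or 3 (edgeR adjusted p 0.0694 to 0.15). St3gal4 and Mgat5 lost their calls without CTRL replicate 1 or 2 or APAP_PBS replicate 1 or 3 (edgeR adjusted p 0.0583 to 0.136). Hyal1 lost its call without CTRL replicate 1 or 2 or APAP_PBS replicate 2 or 3 (edgeR adjusted p 0.0609 to 0.152). Itih5 and Hs3st3b1 were not called with the FPKM values (limma adjusted p 0.064 to 0.0647). Mgat2 was not called with library size alone or the FPKM values (edgeR or limma adjusted p 0.0521 to 0.0795).

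Cytoskeleton, membrane and adhesion genes were mostly uncalled. Called shares ran from 7.14% for annexins to 19.2% for galectins and tetraspanins, against 10.3% of all genes. The median log2 fold change was 0.16 for actin regulators, 0.21 for galectins and tetraspanins, 0.12 for annexins and 0.01 for junction genes, against 0.03 over all genes. The median effect over the actin regulators was 0.46, 0.07 and 0.07 in APAP_PBS replicates 1, 2 and 3. Of 37 actin regulators 3 were higher and 0 lower by edgeR, with 0 lower at an unadjusted p under 0.05 and by DESeq2. Actb, beta-actin, stood at 246 and 226 CPM in CTRL and 479, 412 and 353 CPM in APAP_PBS (log2 fold change 0.82 ± 0.20 (SE), edgeR adjusted p = 0.0253). Flna, filamin, stood at 26.1 and 23.6 CPM in CTRL and 65.5, 37.6 and 41.2 CPM in APAP_PBS (log2 fold change 0.96 ± 0.26 (SE), edgeR adjusted p = 0.0497), with replicate 1 highest in both. Of 26 galectins and tetraspanins 3 were higher and 2 lower. Cd63, a tetraspanin of late endosomes, stood at 4.20 and 4.18 CPM in CTRL and 16.3, 12.1 and 12.1 CPM in APAP_PBS (log2 fold change 1.69 ± 0.31 (SE), edgeR adjusted p = 0.0102). Tm4sf4, a four-span protein of epithelia, changed by 1.14 ± 0.20, while Lgals9 and Lgals8, galectins with paired sugar-binding domains, changed by -0.70 ± 0.13 and -0.53 ± 0.12. Of 28 annexins and membrane repair genes, S100a11 changed by 1.28 ± 0.23 and Anxa3 by 0.78 ± 0.21. Of 33 junction genes, the desmosomal Dsp stood at 71.99 and 70.6 CPM in CTRL and 115, 122 and 116 CPM in APAP_PBS (log2 fold change 0.72 ± 0.12 (SE), edgeR adjusted p = 0.00466), with Jup at 0.70 ± 0.14 and the endothelial connexin Gja4 at 1.29 ± 0.28, while Gjb1, the main hepatocyte connexin, changed by -0.48 ± 0.13. Sums of monocyte markers, given above, were also highest in replicate 1, and their part in the actin genes was not tested. Tm4sf4 and S100a11 lost their calls without CTRL replicate 2 (edgeR adjusted p 0.0565 to 0.061). Jup lost its call without CTRL replicate 1 (edgeR adjusted p = 0.0812). Cd63 lost its call without CTRL replicate 1 or 2 (edgeR adjusted p 0.071 to 0.0841). Gja4 lost its call without CTRL replicate 1 or 2 or APAP_PBS replicate 3 (edgeR adjusted p 0.053 to 0.112). Actb lost its call without CTRL replicate 1 or 2 or APAP_PBS replicate 1 or 2 (edgeR adjusted p 0.061 to 0.14). Flna lost its call without CTRL replicate 1 or 2 or APAP_PBS replicate 1 or 3 or APAP_MSC replicate 1 (edgeR adjusted p 0.0645 to 0.21). Lgals8 and Gjb1 lost their calls without any 1 of the 5 compared libraries (edgeR adjusted p 0.0519 to 0.219). Anxa3 lost its call without CTRL replicate 2 or APAP_PBS replicate 1, 2 or 3 or APAP_MSC replicate 1 (edgeR adjusted p 0.0501 to 0.226). Lgals8 and Gjb1 were not called with library size alone or the FPKM values (edgeR or limma adjusted p 0.1 to 0.205). Flna was not called with DESeq2 size factors, no filter on low counts or only the 5 compared libraries in the fit (edgeR adjusted p 0.0527 to 0.0759).

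Of 29 phospholipid genes 2 were higher and 3 lower, or 17.2% called, against 10.3% of all genes. Without single compared libraries 0 to 3 of them were called. Sphingolipid genes had fewer calls, at 3.23% of 31. Pla2g12a, a secreted phospholipase, stood at 4.56 and 3.52 CPM in CTRL and 15.5, 14.9 and 14.8 CPM in APAP_PBS (log2 fold change 1.91 ± 0.30 (SE), edgeR adjusted p = 0.00483). Acer2, the Golgi ceramidase that yields sphingosine, stood at 9.40 and 9.87 CPM in CTRL and 32.8, 21.7 and 25.2 CPM in APAP_PBS (log2 fold change 1.46 ± 0.24 (SE), edgeR adjusted p = 0.00624) and was the single member of 31 sphingolipid genes called by edgeR with TMM, against 3 higher and 2 lower by DESeq2 and 6 higher with library size alone. Lpcat3, which puts polyunsaturated chains into phosphatidylcholine, stood at 88.3 and 102 CPM in CTRL and 60.03, 63.8 and 58.1 CPM in APAP_PBS (log2 fold change -0.65 ± 0.11 (SE), edgeR adjusted p = 0.00543), and Pcyt2, a step of phosphatidylethanolamine synthesis, changed by -0.56 ± 0.12. Pla2g12a and Lpcat3 lost their calls without CTRL replicate 2 (edgeR adjusted p 0.0539 to 0.0549). Pcyt2 lost its call without CTRL replicate 1 or 2 or APAP_PBS replicate 1 (edgeR adjusted p 0.0611 to 0.0758). Lpcat3 and Pcyt2 were not called with library size alone or the FPKM values (edgeR or limma adjusted p 0.0523 to 0.0845).

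Of 33 WNT genes 1 was higher and 2 were lower, and of 41 Notch and BMP genes 2 were higher and 3 lower. These shares, 9.09% and 12.2% called, were near the 10.3% of all genes. Without single compared libraries 0 to 4 WNT genes and 2 or 3 Notch and BMP genes were lower. Hes6, a protein of the Hairy and Enhancer of split family, stood at 87.4 and 68.1 CPM in CTRL and 18.9, 25.8 and 18.9 CPM in APAP_PBS (log2 fold change -1.87 ± 0.18 (SE), edgeR adjusted p = 0.00024). Bmp4, a BMP ligand, stood at 3.35 and 4.28 CPM in CTRL and 0.565, 1.16 and 1.17 CPM in APAP_PBS (log2 fold change -1.97 ± 0.45 (SE), edgeR adjusted p = 0.0199). Id1, a target of BMP signals, stood at 2.99 and 2.44 CPM in CTRL and 6.95, 5.55 and 5.26 CPM in APAP_PBS (log2 fold change 1.13 ± 0.24 (SE), edgeR adjusted p = 0.0144). Of the WNT genes, Fzd8, a receptor, changed by -0.94 ± 0.18, Tcf7, a transcription factor, by -1.21 ± 0.28, and Axin1, a scaffold of the complex that degrades beta-catenin, by 0.54 ± 0.12. Fzd8 lost its call without CTRL replicate 2 (edgeR adjusted p = 0.102). Id1 lost its call without CTRL replicate 2 or APAP_PBS replicate 1 (edgeR adjusted p 0.057 to 0.113). Bmp4 lost its call without CTRL replicate 1 or 2 or APAP_PBS replicate 1 or 3 (edgeR adjusted p 0.0514 to 0.121). Tcf7 lost its call without CTRL replicate 2 or APAP_PBS replicate 1, 2 or 3 (edgeR adjusted p 0.0506 to 0.154). Axin1 lost its call without CTRL replicate 1 or 2 or APAP_PBS replicate 2 or 3 (edgeR adjusted p 0.0557 to 0.104). Fzd8 was not called with the FPKM values (limma adjusted p = 0.0943).

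Most lists of the general machinery of the cell held smaller called shares than the 10.3% of all genes. Chromatin genes, at 10.2%, were at that share, while RAB and endosome genes had 7.27%, ubiquitin genes 5.5% and autophagy genes 4.44%. Of 55 genes of RNA decay and RNA binding 0 were called by edgeR, against 10.3% of all genes, with 4 higher and 1 lower at an unadjusted p under 0.05 and 2 higher by DESeq2. Of 30 genes of ER protein import and oligosaccharide transfer 0 were called by edgeR, with 6 lower at an unadjusted p under 0.05 and 3 by DESeq2. The smallest p in that list belonged to Sec61b, a subunit of the translocation channel, at 43.01 and 45.4 CPM in CTRL and 29.7, 33.6 and 36.6 CPM in APAP_PBS (edgeR adjusted p = 0.0629). By edgeR, 1 of 50 translation factors was called, the release factor Etf1 at 0.51 ± 0.12, whereas DESeq2 called 2 higher and 2 lower. Of 44 splicing factors edgeR called Rbm3, a cold-inducible RNA-binding protein, at 0.78 ± 0.21, and of 47 nuclear transport genes Ipo8, an importin, at -0.43 ± 0.12, and DESeq2 called 1 in each list. Of 35 genes of transport between ER and Golgi 0 were higher and 2 lower by edgeR, against 0 and 3 by DESeq2 and 1 and 8 at an unadjusted p under 0.05. Of 55 RAB and endosome genes 2 were higher and 2 lower, of 49 chromatin genes 3 and 2, and of 25 tubulin and microtubule genes 1 was higher. Of 45 autophagy genes Ulk1, the initiating kinase, changed by -0.80 ± 0.19, and Wipi1, which binds the forming autophagosome, by -0.86 ± 0.16. Of 55 ubiquitin genes Fbxo31, a ubiquitin ligase subunit, was higher, at 17.3 and 20.4 CPM in CTRL and 42.9, 37.2 and 36.7 CPM in APAP_PBS (log2 fold change 1.04 ± 0.15 (SE), edgeR adjusted p = 0.00207). Uhrf1, which recruits the maintenance DNA methyltransferase, stood at 0.142 and 0.235 CPM in CTRL and 1.24, 2.07 and 0.702 CPM in APAP_PBS. Brd2, a bromodomain protein, stood at 67.6 and 67.6 CPM in CTRL and 105, 101 and 108 CPM in APAP_PBS (log2 fold change 0.63 ± 0.12 (SE), edgeR adjusted p = 0.00823). Wipi1 lost its call without CTRL replicate 2 (edgeR adjusted p = 0.0766). Brd2 lost its call without CTRL replicate 1 or 2 (edgeR adjusted p 0.0503 to 0.0557). Ulk1 lost its call without CTRL replicate 2 or APAP_PBS replicate 1, 2 or 3 (edgeR adjusted p 0.0513 to 0.192). Uhrf1 lost its call without CTRL replicate 1 or 2 or APAP_PBS replicate 1 or 2 (edgeR adjusted p 0.0544 to 0.117). Etf1 lost its call without any 1 of the 5 compared libraries (edgeR adjusted p 0.0672 to 0.119). Rbm3 lost its call without any 1 of the 5 compared libraries or APAP_MSC replicate 3 (edgeR adjusted p 0.0561 to 0.186). Ipo8 lost its call without any 1 of the 5 compared libraries or APAP_MSC replicate 1 (edgeR adjusted p 0.0576 to 0.157). Wipi1 was not called with the FPKM values (limma adjusted p = 0.0524). Ipo8 and Ulk1 were not called with library size alone or the FPKM values (edgeR or limma adjusted p 0.0559 to 0.291).

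Markers of other cells were read for the whole lists, beside the 10.3% of all genes that were called. Of 7 tested neutrophil markers 2 were higher and 0 lower by edgeR, with 5 higher at an unadjusted p under 0.05 and 3 by DESeq2. Without single compared libraries 0 to 4 of them were higher. Of 8 cholangiocyte markers 1 was higher. The 10 in the table summed to 120 and 65.9 CPM in CTRL and 93.2, 105 and 129 CPM in APAP_PBS. The CTRL libraries thus differed in this list, with median effects of 1.08 and -1.08. Of 4 T and NK and 3 B cell markers 0 were called by edgeR and DESeq2, with 1 lower in each at an unadjusted p under 0.05. Of 15 monocyte and macrophage markers 2 were higher, the chemokine receptor Ccr2 at 1.07 and 1.36 CPM in CTRL and 7.29, 3.89 and 2.69 CPM in APAP_PBS (log2 fold change 1.91 ± 0.42 (SE), edgeR adjusted p = 0.0164) and the lysosomal Cd68 at 6.91 and 6.25 CPM in CTRL and 24.7, 16.4 and 19.2 CPM in APAP_PBS (log2 fold change 1.61 ± 0.33 (SE), edgeR adjusted p = 0.0176). In the monocyte and macrophage list 4 were higher and 0 lower at an unadjusted p under 0.05, and 3 and 0 by DESeq2. Without single compared libraries 0 to 3 of that list were higher. Of 9 tested Kupffer cell markers and 12 endothelial markers 0 were called by edgeR, with 3 and 2 at an unadjusted p under 0.05, in both directions together, and 1 and 0 by DESeq2. Of 13 stellate cell markers Ngfr and Des were higher, at 1.38 ± 0.24 and 1.18 ± 0.29, and Colec11 lower, at -0.61 ± 0.14. Alas2, an enzyme of heme synthesis in erythroid cells, was lower at 136 and 130.3 CPM in CTRL and 67.5, 59.8 and 60.1 CPM in APAP_PBS (log2 fold change -1.09 ± 0.26 (SE), edgeR adjusted p = 0.0308). The other tested erythroid markers, 4 hemoglobin genes, had positive fitted values of up to 3.03 on the log2 scale and were not called by edgeR, with 3 at an unadjusted p under 0.05 and 2 called higher by DESeq2. The 7 erythroid markers in the table summed to 141 and 138 CPM in CTRL and 156, 71.0 and 87.7 CPM in APAP_PBS, most of it from Alas2 in 4 of the 5 libraries. The part of changed cell numbers in these values was not tested. Ngfr lost its call without CTRL replicate 2 (edgeR adjusted p = 0.0593). Ccr2 and Cd68 lost their calls without CTRL replicate 1 or 2 (edgeR adjusted p 0.0804 to 0.12). Colec11 lost its call without CTRL replicate 2 or APAP_PBS replicate 2 or 3 (edgeR adjusted p 0.0579 to 0.157). Des lost its call without CTRL replicate 1 or 2 or APAP_PBS replicate 1 or 3 (edgeR adjusted p 0.0751 to 0.168). Alas2 lost its call without any 1 of the 5 compared libraries (edgeR adjusted p 0.0827 to 0.136). Alas2 was not called with no filter on low counts (edgeR adjusted p = 0.056). Colec11 was not called with library size alone or the FPKM values (edgeR or limma adjusted p 0.111 to 0.157).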

How the data were processed

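Liver RNA of 8 libraries in 3 groups (CTRL n = 2, APAP_PBS n = 3, APAP_MSC n = 3) was sequenced after oligo(dT) capture, per the labels' protocols. The deposited table gives an estimated count and an FPKM value per gene and library, per the file headers. Of the estimated counts, 6.39% to 7.46% per library were not whole, and they were rounded here. Trimming used fastp 0.18.0, per the submitters' processing notes. No source used here names the aligner, the counter, the strand setting or the genome build, so overlapping and antisense genes cannot be told apart. All value columns were mapped to samples (0 left over).

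Symbols and coordinates were taken from the GENCODE M21 annotation of GRCm38 by Ensembl ID (22128 of 22183 matched), and promoters from RefSeq (GRCm38.p6). In edgeR 4.0.16 (R 4.3.3), genes were filtered by filterByExpr and scaled by TMM, and a robust quasi-likelihood model with 1 coefficient per group was fitted to all 8 libraries. Genes were called at a Benjamini-Hochberg adjusted p of 0.05 over all genes tested. The SE is the size of the log2 fold change divided by the square root of F. Effects per library used log2(CPM + 0.5). Alternatives used DESeq2 1.42.0, limma 3.58.1 on log2(FPKM + 1), which understates the change of low genes, other filters and scalings, and leaving out each library. Totals were 16261191 to 24516470 counts. Chi-square tests between replicates gave 13.0 to 67.9 per degree of freedom, beyond sampling noise, so none was treated as a repeat deposit of another, which does not show that they come from separate animals. Counts were simulated for this comparison with 200 genes changed (12543 genes tested), fewer than the 1306 called in the data. In them 16.7% of 1.5-fold, 65.7% of 2-fold and 92.4% of 4-fold changes were recovered, and 7 of 123 calls were false. Recovery with more genes changed was not simulated and may differ.

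Named genes were called, did not overlap between groups, reached a mean of 5 CPM in the higher group and were not predicted genes or pseudogenes. They were the 20 largest increases and decreases by fold, the 10 each way by CPM difference and the 10 each way by p, plus up to 4 called members per gene list without the CPM rule, or up to 2 uncalled ones as values. The share of 50-base windows of a gene's transcripts that occur in another gene marks genes whose reads could be divided. For Me1, Paox and Scp2, where it is not given above, it was 22.9%, 25.9% and 29.7%. The lists, the comparison and the rules were chosen with earlier results of these data known. CPM is not divided by gene length, so levels are compared only within a gene. Some genes that these rules name are not reported here.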

Additional observations from a re-analysis of the deposited data

How the results depend on the processing

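The 546 increases and 760 decreases were within 1.5 times of these counts with DESeq2 size factors (522 and 810), the DESeq2 test (739 and 988), no filter on low counts (565 and 708), a stricter filter (555 and 751) and only the 5 compared libraries (765 and 1089). With library size alone the counts were 1620 and 371, with 552 increases of at least 2-fold, and with the FPKM values 1188 and 326, with 96 decreases of at least 2-fold. Testing against a 2-fold change (glmTreat) left 32 increases and 24 decreases. Without 1 library the increases ranged from 175 to 790, the decreases from 303 to 920, and those of at least 2-fold from 125 to 346 and from 136 to 245, in each case lowest without CTRL replicate 2. Of the 205 named called genes, 77 kept their call without each library, 76 also under every other setting run, and 0 changed direction. The stricter filter left Retnlg, Slpi and Uhrf1 untested, and Retnlg was untested without APAP_PBS replicate 2. The deviations of same-numbered libraries had r of -0.147 and -0.0293 across genes between CTRL and APAP_PBS, 0.186 and 0.133 between CTRL and APAP_MSC, and -0.0633 to -0.00167 between APAP_PBS and APAP_MSC, and no label says what the numbers share, so they were not taken as pairs. The replicate block gave 333 increases and 460 decreases, and 61 of the 205 named genes were not called with it. With 2 CTRL libraries, the simulated recovery of small changes was low, and a gene that was not called is not shown to be unchanged.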

Other observations

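Gene families outside the function lists were counted by symbol, as values without a test of the family, and are to be read against 4.29% of all tested genes called higher and 5.97% lower. Of 349 tested zinc finger proteins, which mostly bind DNA, 9 (2.58%) were called higher and 1 (0.287%) lower, with a median log2 fold change of 0.13, and their summed level was 2955 and 2758 CPM in CTRL and 3101, 3112 and 3183 CPM in APAP_PBS. Of 243 tested solute carriers, the membrane transporters for nutrients and ions, 16 (6.58%) were called higher and 30 (12.3%) lower, and they summed to 12420 and 14180 CPM in CTRL and 11170, 10950 and 11630 CPM in APAP_PBS. The table lists 1135 olfactory receptors, of which 27 were tested and 3 (11.1%) called higher. The summed level of the 20 semaphorins was 237 and 264 CPM in CTRL and 264, 254 and 279 CPM in APAP_PBS, so the groups overlapped in the sum although 4 of the 16 tested members were called higher.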
